A study of Homo sapiens with 6 samples.

Results

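The genes described here encode the proteins that mark replication origins, load and start the replicative helicase, and copy DNA at the fork. They are a set of 42 genes chosen by symbol, of 30717 genes in the deposited count table, and all 42 had enough counts to be tested. RNA was sequenced from T24 and UMUC3 (UM-UC-3 in the labels), established human bladder cancer lines, to ask how expression changed when circPTK2, a circular RNA made from the gene PTK2, was knocked down. Each line has 1 library with the genotype label control (title si-circPTK2-CON) and 2 with the label circPTK2 knockdown (titles si-circPTK2-1 and si-circPTK2-2). The titles thus point to siRNAs and the design text of the series to sh constructs, and the reagent cannot be told from them. The groups share no other agent or allele that the labels give. The labels do not say whether the knockdown libraries of a line are separate cultures, or whether titles 1 and 2 name different constructs. The p-values below therefore reflect only how far these samples differ, which may be technical or due to the construct.

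Replication begins when the origin recognition complex, with CDC6 and CDT1, loads the MCM2-7 ring onto DNA in G1 phase, and geminin (GMNN) blocks further loading afterwards. In S phase CDC45 and the GINS complex turn the ring into the active helicase, DNA polymerase alpha and primase lay down primers, and polymerases delta and epsilon extend them with the sliding clamp PCNA, which the RFC complex loads. Many of these genes are transcribed as cells approach S phase through E2F transcription factors, and E2F1 is held in check by the RB protein. In RNA from a whole culture, fewer cells in S phase and less RNA per cell cannot be told apart.

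The libraries held 65111683 to 72362436 counts, of which 55071837 to 60780176 fell in named genes. Levels are CPM, counts scaled by library size with TMM factors, and genes are compared with each other only per transcript length, as TPM, which scales each count by the length of its transcript. Of 15 epithelial and urothelial markers 14 were in the table. KRT8 stood at 1482 to 1692 CPM in T24 and 81.5 to 91.01 CPM in UMUC3. The markers KRT5, KRT20, CDH1, UPK1A, UPK1B, UPK2 and TP63, 7 in all, were under 1 CPM in every library, so the uroplakins that define urothelium were absent or nearly so in both lines. KRT19, GATA3 and EPCAM were at or near 0 in UMUC3 as well. Of 12 immune markers 8 were in the table, and they summed to 7.67 to 9.73 CPM in T24 and 32.1 to 55.9 CPM in UMUC3, nearly all of it CD68, with PTPRC, LYZ and NKG7 at or near 0. Of 12 stromal and endothelial markers 9 were in the table, and they summed to 74.2 to 84.0 CPM in T24, of which CDH5 made up 64.5 to 75.5 CPM, and to 15.1 to 19.5 CPM in UMUC3.

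After knockdown the replication genes lay mostly below the control in T24 and mostly above it in UMUC3. In T24, both knockdown libraries were below the control for 29 of the 42 genes, against 37.3% of all 20721 genes tested, and both were above it for 6 genes, against 34.7%. In UMUC3, both knockdown libraries were above the control for 25 of the 42, against 35.6% of all genes, and below it for 12, against 37.1%. The median log2 fold change of the 42 was -0.33 in T24 and 0.12 in UMUC3, and that of all genes tested was -0.00 and 0.00. The summed level of the 42 genes was 3972 CPM in the T24 control library against 3013 and 3123 CPM with knockdown. It was 4465 CPM in the UMUC3 control library against 5087 and 4991 CPM with knockdown. The knockdown sums thus lay below the control in T24 and above it in UMUC3, with no overlap in either line.

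None of the 42 differed by edgeR's quasi-likelihood test after Benjamini-Hochberg adjustment over all genes at 0.05, in either line, where 0.0434% of all genes were called lower and 0.0917% higher in T24, and 0.217% lower and 0.43% higher in UMUC3. At an unadjusted p under 0.05, 19 of the 42 were lower and 1 higher in T24, against 5.94% and 6.6% of all genes, and 2 were lower and 9 higher in UMUC3, against 7.62% and 9.22%. DESeq2 called 10 members lower in T24 (CDC45, CDC6, CHAF1B, MCM2, MCM3, MCM6, PCNA, RFC4, RPA2 and WRN) and 1 higher (POLD1), against 2.33% and 3.58% of the genes it tested. In UMUC3 it called 6 higher (CHAF1A, CHAF1B, GINS2, GINS4, MCM3 and POLE) and 1 lower (GMNN), against 6.41% and 4.02%. Each line has a single control library, which the fit assumes to vary like the knockdown libraries.

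**Figure D1:**
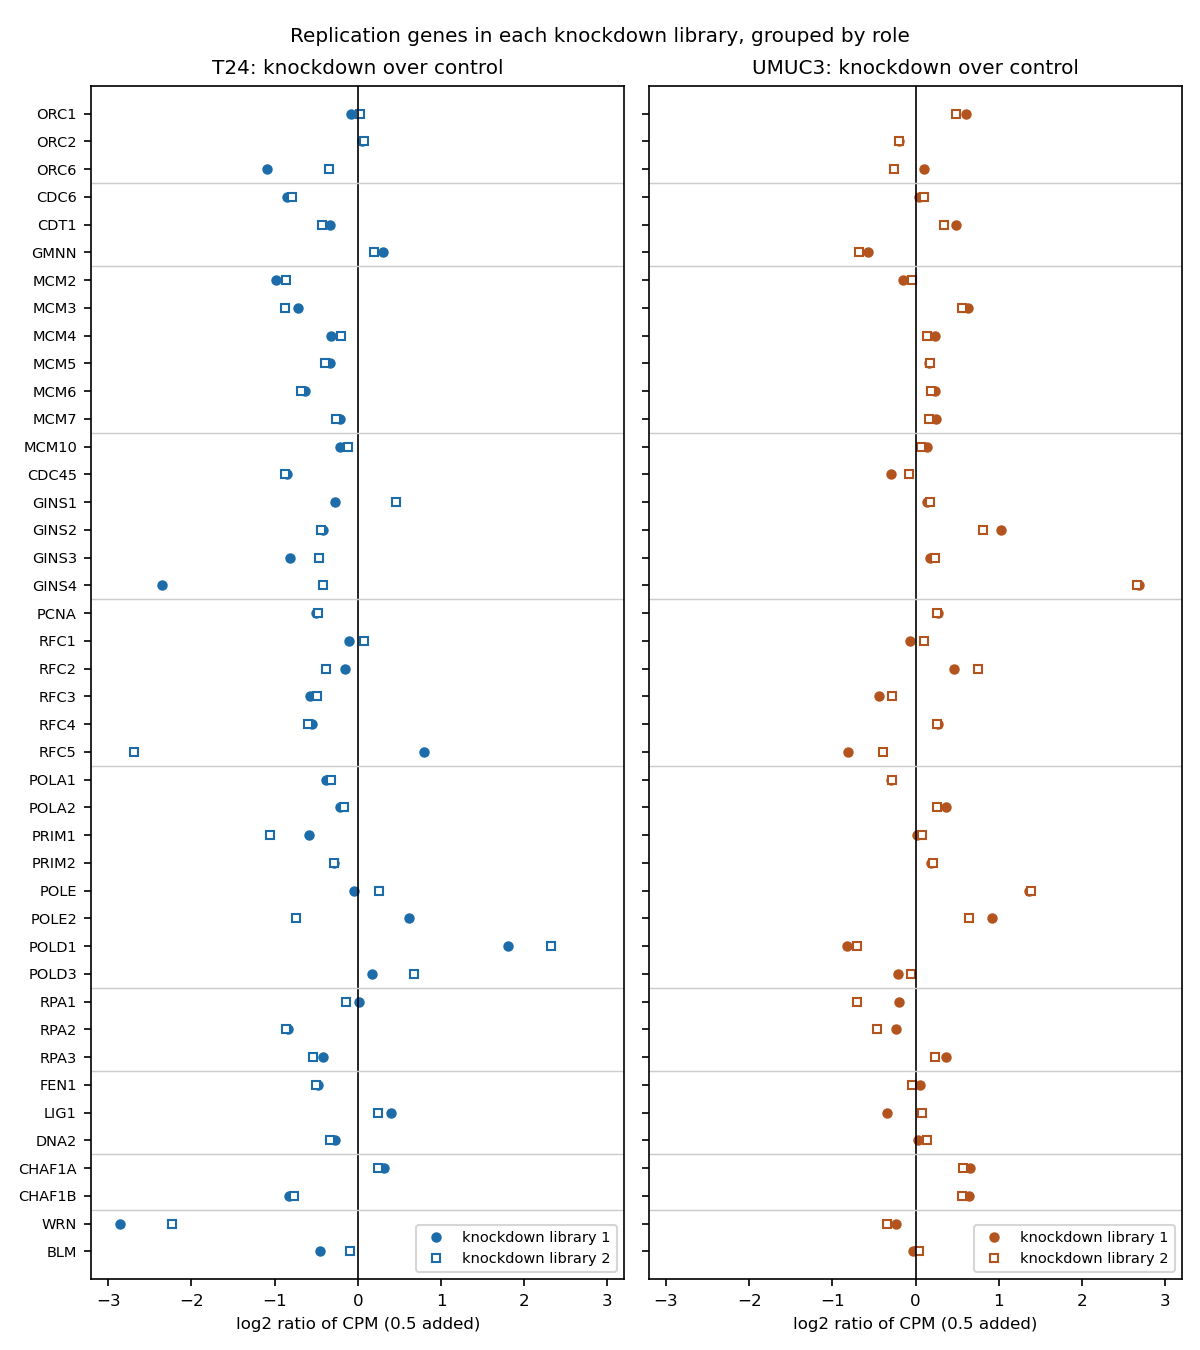
Log2 ratio of each knockdown library to the control of its line (CPM, with 0.5 added), for the 42 genes in the order of their roles, with grey lines between roles; filled circles are knockdown library 1 and open squares library 2. In T24 both points lie left of 0 for 29 genes, and in UMUC3 both lie right of 0 for 25.

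The levels of mitochondrially encoded transcripts also differed between the T24 libraries. Of 13 such genes 10 were tested. In T24 all 10 were higher after knockdown at an unadjusted p under 0.05, against 6.6% of all genes, with none called by edgeR after adjustment. In UMUC3 1 was higher and 0 lower at that threshold, against 9.22% and 7.62% of all genes. Their summed level was 24030 CPM in the T24 control library against 30440 and 31860 CPM with knockdown, and 41240, 38710 and 41890 CPM in UMUC3. The part of these transcripts in the values of the replication genes was not tested.

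The promoter stretches of MCM2, CDC6, MCM3 and PCNA are shown because these genes had the smallest p in T24 among named members whose promoter holds a word of the E2F type. The words searched, on both strands, were TTTCCCGC, TTTCGCGC, TTTGGCGC and TTTGCCGC, and a palindromic pair can overlap. Each stretch runs from 200 bases before to 25 after the RefSeq start (GRCh38.p14), 5′ to 3′ in the direction of the gene, with the word in capitals.
MCM2, chr3:127598211-127598435, plus strand: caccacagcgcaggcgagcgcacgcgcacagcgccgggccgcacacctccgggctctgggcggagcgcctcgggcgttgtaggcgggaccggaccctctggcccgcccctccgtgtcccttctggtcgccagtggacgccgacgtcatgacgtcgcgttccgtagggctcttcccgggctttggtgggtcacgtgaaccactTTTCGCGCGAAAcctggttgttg
CDC6, chr17:40287679-40287903, plus strand: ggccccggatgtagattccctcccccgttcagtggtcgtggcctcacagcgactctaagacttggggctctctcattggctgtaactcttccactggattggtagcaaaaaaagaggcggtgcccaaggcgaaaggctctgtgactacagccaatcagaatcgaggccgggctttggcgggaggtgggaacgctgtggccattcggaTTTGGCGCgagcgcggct
MCM3, chr6:52284718-52284942, minus strand: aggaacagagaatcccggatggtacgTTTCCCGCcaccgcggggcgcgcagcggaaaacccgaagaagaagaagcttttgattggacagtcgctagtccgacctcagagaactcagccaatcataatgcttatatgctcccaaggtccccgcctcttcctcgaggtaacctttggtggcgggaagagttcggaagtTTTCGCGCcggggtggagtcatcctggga
PCNA, chr20:5126598-5126822, minus strand: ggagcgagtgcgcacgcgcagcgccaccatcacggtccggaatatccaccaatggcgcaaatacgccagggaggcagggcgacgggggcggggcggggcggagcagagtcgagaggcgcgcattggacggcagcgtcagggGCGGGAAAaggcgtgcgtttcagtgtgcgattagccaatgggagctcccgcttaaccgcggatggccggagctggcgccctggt

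Of the 42 genes, 34 had an entry in RefSeq's table of promoters, which run from 250 bases before to 50 after the start. An E2F-type word stood in 16 of the 34 (47.1%), against 3.31% of 35116 promoters. The CCAAT word was in 58.8% against 34.6%, and the GC box GGGCGG in 76.5% against 45%. Each member counts 1 promoter, while the 35116 are all full-length entries, not matched for expression or base composition. In the stretches shown, MCM2 has the word on both strands just after the RefSeq start, in an overlapping pair. MCM3 has 1 far upstream of its RefSeq start and 1 at it. The main MCM2 transcript, ENST00000265056 (88.42 to 99% of its counts), starts further upstream, at 127598223. That of CDC6, ENST00000209728 (98.84 to 99.71%), starts at 40287633, before the whole stretch shown. In UMUC3 most MCM3 counts lay on ENST00000596288 (58.23 to 84.35%), which starts upstream at 52284837. The PCNA word lies 59 bases before the RefSeq start, on the other strand. That start lies near the one of ENST00000379160, which held 2.4 to 7.16% of PCNA counts. The other PCNA transcript, ENST00000379143, starts further downstream at 5120026 and held 92.84 to 97.6%, and its own promoter was not searched. The 16 genes with the word had a median log2 fold change of -0.41 in T24 and 0.21 in UMUC3, and the 18 without it -0.22 and 0.01. These medians describe the genes matched, and their difference was not tested.

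The origin recognition subunits named here differed in direction among themselves. ORC1, the largest subunit of the complex and one that cycles with the cell cycle, was at 29.9 CPM in the T24 control library against 28.3 and 30.5 CPM with knockdown. The 3 T24 libraries overlapped. In UMUC3 it was at 46.6 CPM in the control library against 71.5 and 65.02 CPM with knockdown, both above the control (0.55 ± 0.15 log2, SE, edgeR adjusted p = 0.212). ORC2, a core subunit, was at 34.1 CPM in the T24 control library against 35.5 and 36.1 CPM with knockdown, and at 55.1 CPM in the control library of UMUC3 against 48.1 and 48.01 CPM with knockdown. It lay slightly above the control in T24 and below it in UMUC3. ORC6, the smallest subunit, had 33.6, 15.5 and 26.4 CPM in the T24 control, knockdown 1 and knockdown 2, and the knockdown libraries differed from each other by more than the second differed from the control.

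The loading factor CDC6 and its partner CDT1 lay below the control in T24 and above it in UMUC3. CDC6, the ATPase that brings the MCM ring to the origin, was at 118 CPM in the T24 control library against 65.4 and 68.2 CPM with knockdown. Both knockdown libraries were far below the control and close to each other (-0.82 ± 0.11 log2, edgeR adjusted p = 0.115). In UMUC3 the gene was at 98.8 CPM in the control library against 101 and 106 CPM with knockdown, a difference of the size of the spread between the knockdown libraries. CDT1, which carries MCM2-7 to the origin, was at 88.8, 70.5 and 65.8 CPM in the T24 control and the knockdown libraries 1 and 2, and at 78.7, 110.5 and 99.6 CPM in the same order in UMUC3. GMNN, the CDT1 inhibitor, lay the other way. It was at 34.3 CPM in the T24 control library against 42.2 and 39.1 CPM with knockdown, above the control, and at 56.8 CPM in the control library of UMUC3 against 38.2 and 35.4 CPM with knockdown, below it (-0.63 ± 0.15 log2, edgeR adjusted p = 0.172).

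The 6 subunits of the MCM2-7 ring lay below the control in both T24 knockdown libraries, against 37.3% of all genes. In both UMUC3 knockdown libraries 5 of the 6 lay above it, against 35.6%. At an unadjusted p under 0.05 by edgeR, 5 of the 6 were lower in T24, against 5.94% of all genes. Only 1, MCM3, was higher in UMUC3, against 9.22%. MCM2 (ENSG00000073111, on the plus strand of GRCh38 chromosome 3 from 127598223 to 127622436) was at 266 CPM in the T24 control library against 134 and 146 CPM with knockdown. The knockdown libraries had about the same level, below the control (-0.92 ± 0.10 log2, edgeR adjusted p = 0.0959). In UMUC3 MCM2 was at 293 CPM in the control library against 264 and 282 CPM with knockdown, and it was the subunit that did not lie above the control. MCM3 (ENSG00000112118, on the minus strand of GRCh38 chromosome 6 from 52264009 to 52284881) was at 243 CPM in the T24 control library against 147 and 132 CPM with knockdown (-0.80 ± 0.11 log2, edgeR adjusted p = 0.118). In UMUC3 it was at 165 CPM in the control library against 255 and 243 CPM with knockdown, above the control (0.60 ± 0.11 log2, edgeR adjusted p = 0.125). The control and knockdown values of MCM3 did not overlap in either line and lay in opposite order. Up to 0.304 of MCM3 counts in T24 and 0.261 in UMUC3 changed transcript between libraries.

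MCM6 was at 124, 79.2 and 77.4 CPM in the T24 control and knockdown libraries 1 and 2, and at 162, 189.9 and 183 CPM in UMUC3. MCM7 was at 371, 321 and 309 CPM in T24 and 708, 839.7 and 790.5 CPM in UMUC3, with every UMUC3 library above every T24 library. MCM4 was at 300.5, 241 and 261 CPM in T24 and 406, 478 and 446 CPM in UMUC3. MCM5 was at 312, 249 and 238 CPM in T24 and 259.8, 289.5 and 292 CPM in UMUC3. The T24 fold changes of MCM4, MCM5 and MCM7, -0.26, -0.36 and -0.24 log2, were smaller in size than that of MCM6 at -0.66. The median log2 fold change of the 6 subunits was -0.51 in T24 and 0.19 in UMUC3.

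**Figure D2:**
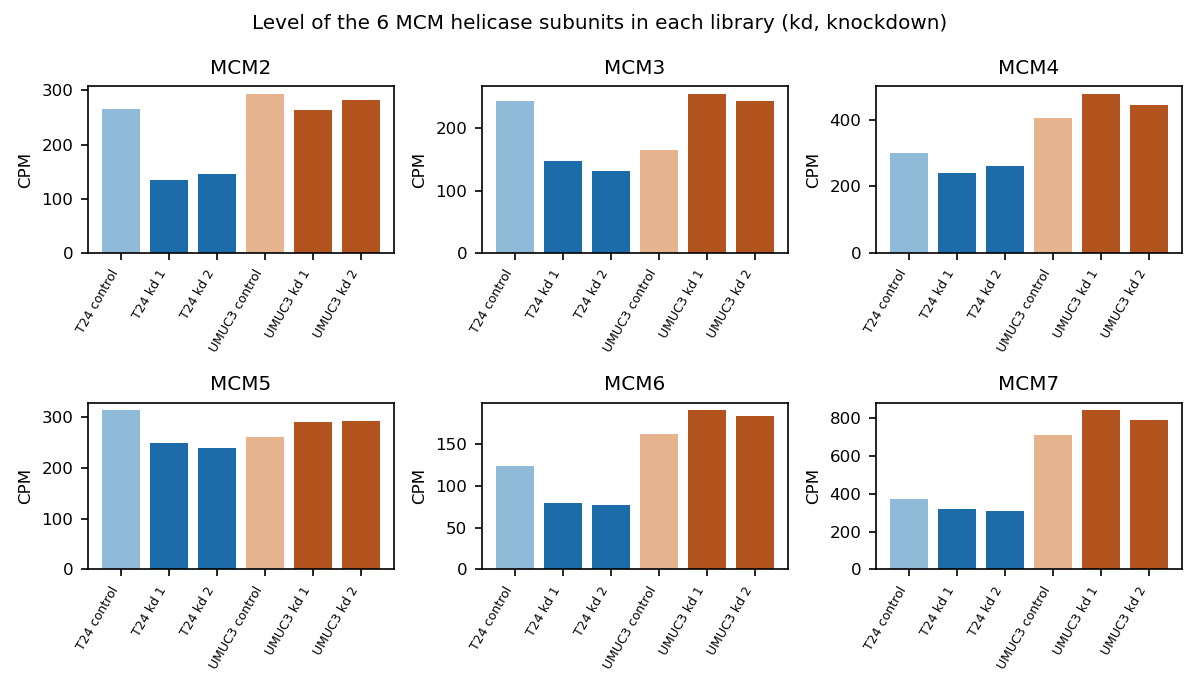
CPM of each MCM2-7 subunit in the 6 libraries, 1 bar per library from 0, with T24 in blue and UMUC3 in orange and the controls in the lighter shade. Each T24 knockdown bar stands below the T24 control, and each UMUC3 knockdown bar stands above its control except for MCM2.

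Per length, MCM7 had the highest and MCM6 the lowest level of the ring in all 6 libraries, and the order of the subunits between them changed from library to library. MCM7 was at 267 TPM in the T24 control library against 226 and 218 TPM with knockdown, and MCM6 at 68.2 TPM in the T24 control library against 43.00 and 42.2 TPM with knockdown. The ratio of the highest to the lowest subunit was 3.91 in the T24 control and 5.27 and 5.15 after knockdown, and 5.73, 5.74 and 5.60 in UMUC3. The sum over the ring was 1002 TPM in the T24 control and 721 and 703 TPM after knockdown, and 1183, 1355 and 1348 TPM in UMUC3. These sums lay below the control in T24 and above it in UMUC3.

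Of the helicase activators, CDC45 and GINS3 were lower in T24 at an unadjusted p under 0.05. CDC45, the factor that joins MCM2-7 and GINS in the active helicase, was at 44.6 CPM in the T24 control library against 24.5 and 24.2 CPM with knockdown. Both knockdown libraries were equally low (-0.87 ± 0.17 log2, edgeR adjusted p = 0.187). In UMUC3 it was at 36.1, 29.2 and 34.1 CPM in the control, knockdown 1 and knockdown 2. GINS2 was at 60.5, 45.1 and 44.3 CPM in T24 and at 19.1 CPM in the control library of UMUC3 against 39.2 and 33.9 CPM with knockdown. Its UMUC3 knockdown libraries lay above the control (0.94 ± 0.17 log2, edgeR adjusted p = 0.12) and its T24 ones below. MCM10, which helps to open the helicase, was at 23.6, 20.3 and 21.6 CPM in T24 and 55.1, 60.5 and 57.3 CPM in UMUC3, a difference between the lines larger than any within one. GINS1 and GINS3 had fold changes from -0.64 to 0.14 log2 in T24 and from 0.15 to 0.20 log2 in UMUC3.

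PCNA (ENSG00000132646, on the minus strand of GRCh38 chromosome 20 from 5114953 to 5126626), the sliding clamp that holds polymerases on DNA, was at 509 CPM in the T24 control library against 361 and 365 CPM with knockdown. Both knockdown libraries lay below the control and differed from each other by little (-0.49 ± 0.07 log2, edgeR adjusted p = 0.121). In UMUC3 PCNA was at 401 CPM in the control library against 482 and 482 CPM with knockdown, above the control (0.27 ± 0.07 log2, edgeR adjusted p = 0.203). Of the clamp loader, RFC3 was at 57.5, 38.4 and 40.6 CPM in T24 and 86.2, 63.2 and 70.1 CPM in UMUC3, below the control in all 4 knockdown libraries. RFC4 was at 36.1, 24.6 and 23.6 CPM in T24, where knockdown was lower, and at 48.7, 58.8 and 58.5 CPM in UMUC3, where it was higher. Up to 0.611 of RFC4 counts in T24 and 0.635 in UMUC3 changed transcript between libraries. RFC1 and RFC2 had fold changes of -0.01 and -0.26 log2 in T24 and 0.02 and 0.62 log2 in UMUC3.

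The 8 polymerase genes did not share a direction: 4 fold changes were negative and 4 positive in T24, and 3 negative and 5 positive in UMUC3. POLE, the catalytic subunit of the leading-strand polymerase epsilon, was at 111 CPM in the T24 control library against 107 and 132 CPM with knockdown, and at 69.9 CPM in the control library of UMUC3 against 180.2 and 184 CPM with knockdown. In UMUC3 its knockdown libraries were both far above the control (1.38 ± 0.17 log2, edgeR adjusted p = 0.0702), with the smallest p of any member there. Per length the difference was smaller, from 37.2 TPM to 60.6 and 62.04 TPM (0.71 log2, limma adjusted p = 0.152), and up to 0.399 of its counts there lay on other transcripts from one library to another. POLD1, the catalytic subunit of polymerase delta, lay the other way from most members. It was at 17.2 CPM in the T24 control library against 61.5 and 87.8 CPM with knockdown (2.12 ± 0.28 log2, edgeR adjusted p = 0.115). Per length POLD1 in T24 was at 20.8 TPM in the control and 53.2 and 63.8 TPM with knockdown (1.46 log2, limma adjusted p = 0.17), and up to 0.578 of its counts changed transcript. In UMUC3 it was at 114 CPM in the control library against 64.3 and 70.3 CPM with knockdown (-0.76 ± 0.24 log2, edgeR adjusted p = 0.251). POLA1, the catalytic subunit of polymerase alpha, was at 77.1, 59.2 and 61.6 CPM in T24 and 92.3, 74.7 and 75.2 CPM in UMUC3, below the control in all 4 knockdown libraries. The primase subunits PRIM1 and PRIM2 were at 23.9, 15.7 and 11.3 CPM and 37.9, 31.1 and 30.9 CPM in T24 and at 44.7, 45.4 and 46.8 CPM and 53.4, 61.1 and 61.8 CPM in UMUC3. They were lower in T24 than in UMUC3 in every library. Up to 0.529 of PRIM1 counts in UMUC3 and 0.333 in T24 changed transcript between libraries. POLE2 and POLD3, accessory subunits, were at 7.26, 11.4 and 4.16 CPM and 38.7, 43.7 and 61.96 CPM in T24, and at 16.9, 32.3 and 26.6 CPM and 86.7, 74.7 and 83.3 CPM in UMUC3.

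RPA coats the single strands that the helicase exposes. RPA2, its middle subunit, was at 93.1 CPM in the T24 control library against 51.7 and 51.04 CPM with knockdown (-0.86 ± 0.15 log2, edgeR adjusted p = 0.16), and at 67.02 CPM in the control library of UMUC3 against 56.5 and 48.5 CPM with knockdown. All 4 knockdown libraries were below their control. RPA3, the smallest subunit, was at 37.9, 28.1 and 25.9 CPM in T24 and 13.6, 17.8 and 16.1 CPM in UMUC3, with every T24 library above every UMUC3 library. Of the genes that process Okazaki fragments, FEN1, the flap nuclease, was at 236, 168 and 167 CPM in T24 and 188, 195 and 183 CPM in UMUC3. It was lower after knockdown in T24 and on both sides of the control in UMUC3. LIG1, the ligase, and DNA2, a nuclease and helicase, were at 9.82, 13.1 and 11.7 CPM and 25.2, 20.7 and 19.96 CPM in T24, and at 31.3, 24.5 and 33.2 CPM and 72.3, 73.7 and 78.97 CPM in UMUC3.

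The subunits of chromatin assembly factor 1, which places histones behind the fork, differed from each other in T24. CHAF1A was at 43.5 CPM in the T24 control library against 54.2 and 51.5 CPM with knockdown, and at 105 CPM in the control library of UMUC3 against 166 and 156 CPM with knockdown. It was the only member of the 42 above the control in all 4 knockdown libraries, against 13.3% of all genes (0.61 ± 0.12 log2 in UMUC3, edgeR adjusted p = 0.126). CHAF1B was at 49.3 CPM in the T24 control library against 27.5 and 28.7 CPM with knockdown, below the control (-0.81 ± 0.15 log2, edgeR adjusted p = 0.169). In UMUC3 it was at 27.1 CPM in the control library against 42.5 and 40.1 CPM with knockdown, above the control (0.61 ± 0.15 log2, edgeR adjusted p = 0.187).

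Among the RecQ helicases, WRN was at 16.8 CPM in the T24 control library against 1.88 and 3.2 CPM with knockdown, the largest fold change of the 42 in T24 (-2.73 ± 0.32 log2, edgeR adjusted p = 0.106). In UMUC3 it was at 32.7 CPM in the control library against 27.5 and 25.7 CPM with knockdown (-0.30 ± 0.29 log2, edgeR adjusted p = 0.683). The lines differed in which transcript carried these reads. In T24 nearly all counts lay on the protein-coding ENST00000298139, which had 999 counts in the control and 111 and 186 after knockdown. In UMUC3 that transcript had 115, 110 and 104 counts, and the retained-intron ENST00000521620 had 1706, 1427 and 1454, with 0 in every T24 library. The other helicase, BLM, was at 36.9, 26.9 and 34.6 CPM in T24 and 21.98, 21.6 and 22.6 CPM in UMUC3.

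For some members the deposited counts lay on other transcripts of the gene from one library to the next. The largest share of counts that changed transcript between libraries was at least 0.2 for 16 members in T24 and 17 in UMUC3, and under 0.2 in both lines for 22 of the 42. GINS4 had 59.7, 11.3 and 44.4 CPM in T24 and 8.01, 54.1 and 53.3 CPM in UMUC3. Its transcript ENST00000276533 had 3160, 536 and 81 counts in T24 and 211, 130 and 154 in UMUC3. ENST00000523277 had 1, 5 and 2155 counts in T24 and 24, 2603 and 2899 in UMUC3, and both are typed as protein-coding. RFC5 had 18.3, 31.9 and 2.41 CPM in T24, with the knockdown libraries on both sides of the control. Counts of MCM4 in the first UMUC3 knockdown library lay on ENST00000523944 (25271 counts, against 328 on ENST00000262105), where the control and the second had most on ENST00000262105 (15839 and 22657). The gene sums of MCM4 in those knockdown libraries were 478 and 446 CPM. Protein-coding transcripts held 71.6% of PRIM1 counts in the UMUC3 control and 22.8 and 25.6% after knockdown. In T24 they held 16.3, 39.2 and 43.3% in the same order. ENST00000552590, a nonsense-mediated decay transcript of PRIM1, had 643, 1801 and 2018 counts in UMUC3. The coding share of MCM7 was 51.9, 97.95 and 85.9% in UMUC3 and 48.6, 35.9 and 63.9% in T24. Whether such moves entered the gene values was not tested.

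**Figure D3:**
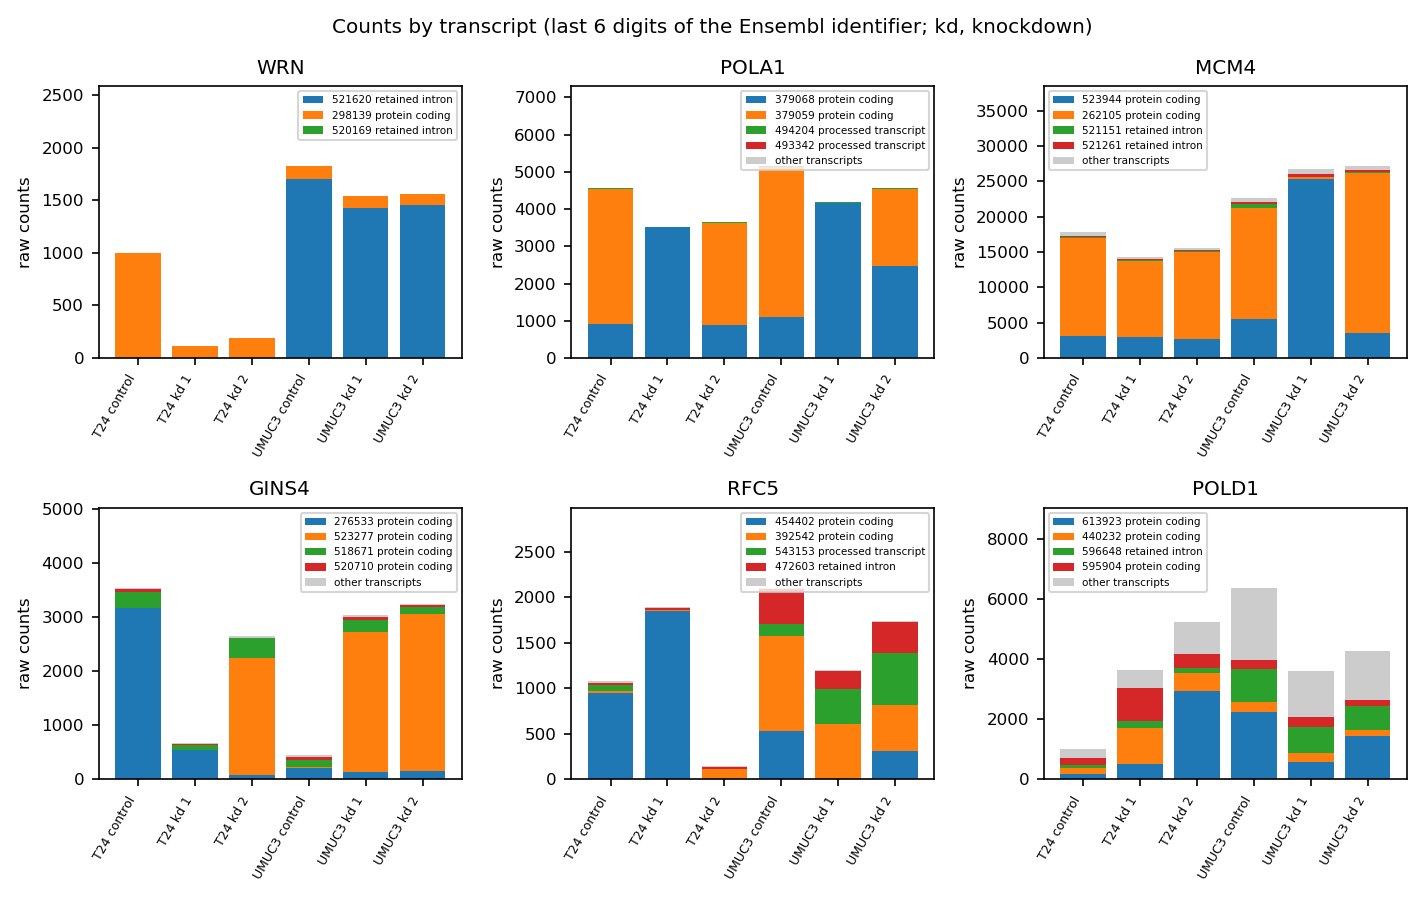
Raw counts by transcript for 6 members with large moves or with different transcripts in the lines, 1 stacked bar per library, and the last 6 digits of each Ensembl identifier with its GENCODE type. WRN lies mostly on a coding transcript in T24 and on a retained-intron transcript in UMUC3. In MCM4 and POLA1 the transcripts exchange counts between libraries.

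Control and knockdown lay in opposite order in the lines for many of these genes. Both T24 knockdown libraries lay below and both UMUC3 ones above their control for 20 of the 42, against 12.3% of all genes, and the reverse held for 4 (ORC2, GMNN, POLD1 and POLD3), against 12.1%. The median UMUC3 effect minus the T24 effect was 0.51 log2, against 0.02 over all genes. In the test of this difference none of the 42 passed edgeR's adjusted threshold, which 0.0193% of all genes passed in the lower and 0.0386% in the higher direction. At an unadjusted p under 0.05, 20 were higher in UMUC3 than in T24 and 2 lower (GMNN and POLD1), against 7.19% and 6.27% of all genes, and all 6 MCM2-7 subunits were among the 20. DESeq2 called 11 higher and 2 lower, against 3.78% and 3.26%. The differences were 1.40 ± 0.16 log2 for MCM3 (edgeR adjusted p = 0.113), 0.75 ± 0.10 for PCNA (adjusted p = 0.137) and 1.42 ± 0.21 for CHAF1B (adjusted p = 0.156). For POLD1 the difference was -2.88 ± 0.37 log2 (edgeR adjusted p = 0.126), and -2.25 log2 per length.

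**Figure D4:**
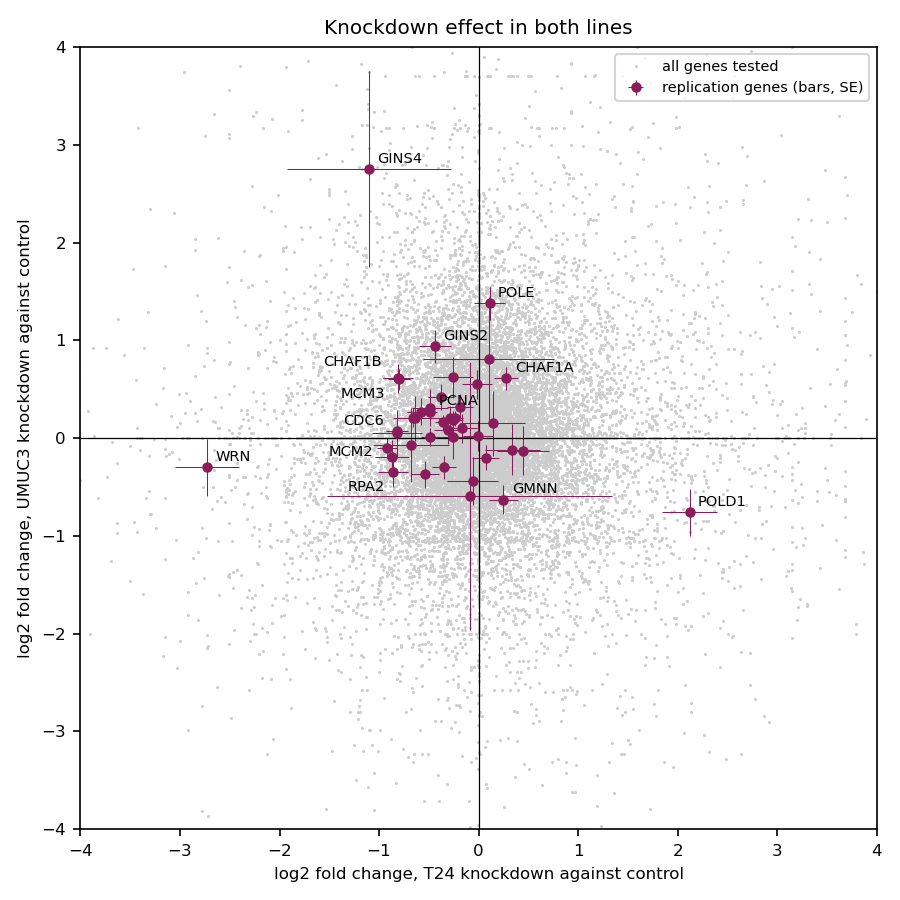
Log2 fold change of knockdown against control in T24 (horizontal) and in UMUC3 (vertical), for all genes tested (grey) and the 42 replication genes (purple, bars are SE); both axes are limited to 4 log2 units on each side. MCM3, CHAF1B and PCNA are among the points at the upper left, below 0 in T24 and above 0 in UMUC3, and POLD1 and GMNN lie at the lower right.

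Over both lines together, none of the 42 was called by edgeR, which called 0.00965% of all genes lower and 0.00483% higher. At an unadjusted p under 0.05, 6 were lower (CDC45, MCM2, POLA1, RFC3, RPA2 and WRN) and 1 higher (CHAF1A), against 5.63% and 5.95% of all genes, and DESeq2 called POLA1, RFC3 and RPA2 lower, against 2.97%. These are the same 6 genes that lay below the control in all 4 knockdown libraries, which 15.1% of all genes did. The fold changes were -0.53 ± 0.19 log2 for MCM2 (edgeR adjusted p = 0.394) and -0.61 ± 0.17 for RPA2 (adjusted p = 0.295). For CHAF1A it was 0.45 ± 0.13 log2 (edgeR adjusted p = 0.322).

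The lines also differed in level. With knockdown as a term, 17 of the 42 were lower in T24 than in UMUC3 and 2 (RPA3 and BLM) were higher by edgeR's adjusted test, against 18.9% and 21.3% of all genes, and the median log2 difference was -0.47 against 0.02 over all genes. All 3 T24 libraries lay below all 3 UMUC3 libraries for 18 members, against 25.1% of all genes, and above them for 3, against 27.2%. CHAF1A (-1.50 ± 0.13 log2, T24 minus UMUC3, edgeR adjusted p = 0.000625), DNA2 (-1.78 ± 0.15, adjusted p = 0.000585), MCM10 (-1.40 ± 0.14, adjusted p = 0.0011) and MCM7 (-1.23 ± 0.12, adjusted p = 0.000937) were lower in T24. LIG1 (-1.37 ± 0.21 log2, edgeR adjusted p = 0.00468), PRIM1 (-1.48 ± 0.25, adjusted p = 0.00652) and ORC1 (-1.03 ± 0.17, adjusted p = 0.00642) were too. PRIM1 and ORC1 were no longer called between the control libraries alone (edgeR adjusted p = 0.0935 and 0.0702). The call of BLM was lost on leaving out any 1 library other than T24 knockdown 1, and that of RPA3 without T24 knockdown 1 or UMUC3 knockdown 2. Between the controls 7 members were lower and 5 higher in T24, against 10.7% and 13.6% of all genes, and between the knockdown libraries 22 were lower and 1 higher, against 16.2% and 18.4%. The first comparison has 1 library on each side and the second 2, so these counts also reflect the number of libraries, and the difference between them was not tested.

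Per length, PCNA had the highest level of the 42 in all 6 libraries and MCM7 the second, and in T24 WRN had the lowest. PCNA was at 776 TPM in the T24 control library against 541 and 549 TPM with knockdown, and at 567 TPM in the control library of UMUC3 against 674 and 704 TPM with knockdown. WRN was at 6.67 TPM in the T24 control library against 0.776 and 1.43 TPM with knockdown, and the next lowest member in the T24 control was LIG1 at 11.7 TPM. The median of the 42 was 40.2 TPM in the T24 control and 34.8 and 33.6 TPM after knockdown, and 44.7, 43.7 and 48.8 TPM in UMUC3. MCM7 and PCNA were closer to each other in UMUC3 than in T24.

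**Figure D5:**
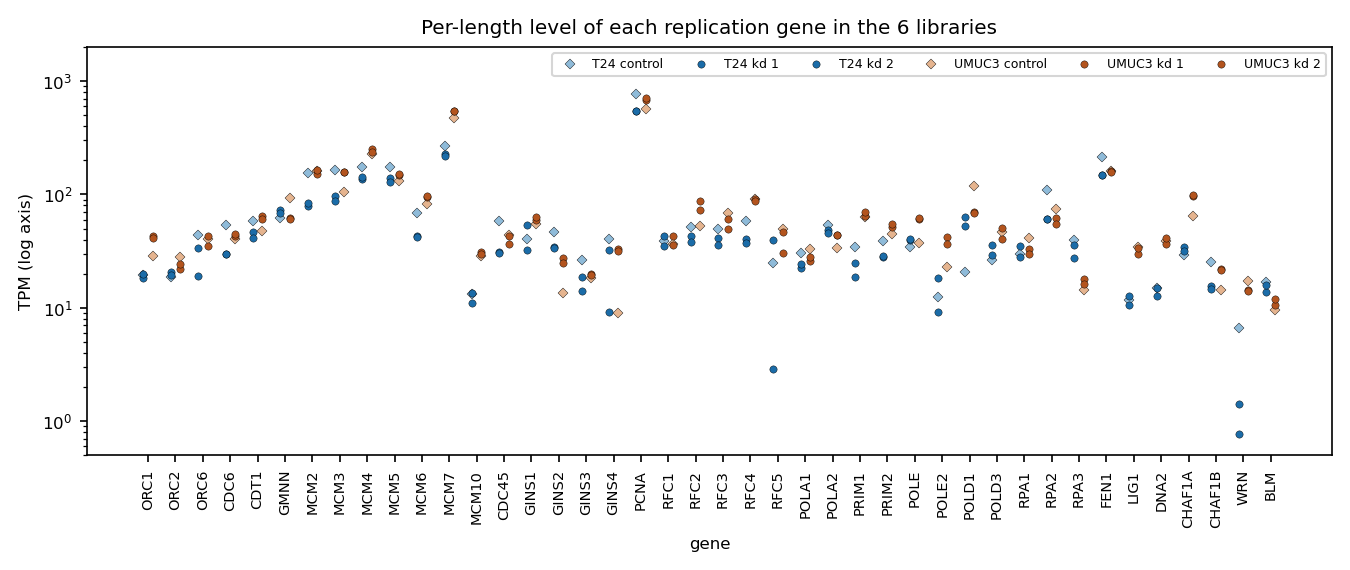
Per-length level in TPM on a log axis for each of the 42 genes in the 6 libraries, with T24 in blue, UMUC3 in orange and controls as lighter diamonds. PCNA is highest in every library, from 541 to 776 TPM, and WRN is lowest in the T24 libraries.

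Other genes of the pathway were taken from lists by function. By edgeR's adjusted test, 0 genes of these 4 lists were called in T24, against 0.0434% of all genes lower and 0.0917% higher. In UMUC3 1 of the other replication genes and 2 of the E2F, RB and cyclin genes were lower and 0 higher. The shares of all genes there were 0.217% and 0.43%. All 3 of these calls were lost on leaving out any 1 of the 4 knockdown libraries (edgeR adjusted p from 0.177 to 0.222). The counts that follow use an unadjusted p under 0.05, at which 5.94% of all genes were lower and 6.6% higher in T24, and 7.62% and 9.22% in UMUC3. Of 38 other replication genes, 5 (13.2%) were lower and 4 (10.5%) higher in T24, and 1 (2.63%) lower and 4 (10.5%) higher in UMUC3. POLE3, a small subunit of polymerase epsilon, fell in UMUC3 (-1.48 ± 0.12 log2, edgeR adjusted p = 0.047), from 156 CPM to 58.97 and 53.5 CPM. In T24 it was at 160.0, 63.4 and 59.1 CPM (-1.38 ± 0.12 log2, edgeR adjusted p = 0.0808). Of 24 E2F, RB and G1/S cyclin genes, 7 (29.2%) were lower and 2 (8.33%) higher in T24, and 4 (16.7%) lower and 2 (8.33%) higher in UMUC3. Of these 24, 10 lay below the control in all 4 knockdown libraries, against 15.1% of all genes. Another 4 lay below it in T24 and above it in UMUC3, against 12.3% of all genes. E2F1, the activator that drives S-phase genes, was at 142 CPM in the T24 control library against 91.4 and 92.8 CPM with knockdown, and at 44.00 CPM in the control library of UMUC3 against 92.01 and 81.2 CPM with knockdown. E2F1 was one of those 4, and it was not called in either line (edgeR adjusted p = 0.201 and 0.0835). The genes of this list with the smallest p in T24 were CDKN1B, CDKN1A and E2F2, none of them called (edgeR adjusted p = 0.172, 0.194 and 0.198). CDKN1B, which encodes the inhibitor p27, was at 76.1, 111 and 113 CPM in T24, above the control after knockdown, while CDKN1A was at 91.7, 57.03 and 50.5 CPM and E2F2 at 20.1, 12.2 and 13.1 CPM, below it. CDKN1A, which encodes the cyclin-dependent kinase inhibitor p21, fell in UMUC3 from 444 CPM to 95.6 and 80.8 CPM (-2.33 ± 0.15 log2, edgeR adjusted p = 0.0421). RBL1, which encodes the RB relative p107, fell there too (-1.95 ± 0.14 log2, edgeR adjusted p = 0.0432), from 55.4 CPM to 14.8 and 13.9 CPM.

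Of 11 nucleotide supply genes, 3 (27.3%) were lower and 1 (9.09%) higher in T24, and 2 (18.2%) lower and 2 (18.2%) higher in UMUC3 at the same unadjusted threshold. RRM2B, a small subunit of ribonucleotide reductase, had the smallest p of that list in both lines, at 45.6, 11.4 and 13.1 CPM in T24 and 59.9, 24.7 and 26.6 CPM in UMUC3 (edgeR adjusted p = 0.0808 and 0.0802). Of 21 fork stress and repair genes, 2 (9.52%) were lower and 1 (4.76%) higher in T24, and 2 (9.52%) lower and 2 (9.52%) higher in UMUC3, close to the shares of all genes, and none was called by edgeR in either line. CHEK1, the checkpoint kinase at stalled forks, was at 46.3, 8.02 and 13.2 CPM in T24, with both knockdown libraries below the control (edgeR adjusted p = 0.287).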

How the data were processed

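Total RNA of 6 libraries was sequenced, and the authors deposited raw read counts for 136953 transcripts, unnormalised. The tools named, per the submitters' processing notes, are StringTie 1.3.3b, HISAT2 2.1.0 and FastQC 0.11.5, with the build hg38, and no role or order is given for them. Strand and RNA selection are not given in the sources used here, so overlapping, antisense and near-identical genes cannot be told apart. The transcripts without a gene (15038, holding 14.86 to 16.1% of a library's counts) were left out, and the others were summed to 30717 genes.

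The test covered 20721 genes, those that reached 10 counts in 2 or more libraries and 30 counts in total. It used edgeR 4.0.16 (TMM, robust quasi-likelihood F test) in R 4.3.3, at a Benjamini-Hochberg adjusted 0.05. Each line and the difference between lines came from a fit of 4 groups (2 residual degrees of freedom), and both lines together and line against line from a fit with line and knockdown as terms (3). In T24 the siRNA number of the title and the number in the data column are swapped, and libraries are numbered by title. The correlation between lines of the deviations of same-numbered knockdown libraries was -0.00138, so the numbers were not taken to pair samples. The chi-square statistic of the knockdown pair was 125.6 per degree of freedom in T24 and 122.7 in UMUC3, so no library was merged. Levels per length (TPM) divide each transcript's count by its GENCODE 29 length. DESeq2 1.42.0 and limma 3.58.1 served as alternatives. The fits were checked on simulated counts.

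The 42 genes, the other lists and the tests were chosen with earlier results of these data known. The bias-adjusted quasi-likelihood method of edgeR was chosen over the earlier one after both had been run. The earlier one called 0 genes lower and 2 higher in T24, and 3 lower and 10 higher in UMUC3. The one used called 9 lower and 19 higher in T24, and 45 lower and 89 higher in UMUC3. Neither called any of the 42 in a knockdown comparison. Named members are those past the threshold in any of 5 comparisons, the 8 with the smallest p in each, and the smallest p of each role in each line, and from each other list up to 3 genes with the smallest p in each line. CDT1, MCM5, GINS1, GINS3, GINS4, RFC1, RFC2 and RFC5 fall outside that rule and were chosen after their values were seen. The knockdown itself was not checked, since linear PTK2 transcripts share exons with the circle.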

Additional observations from a re-analysis of the deposited data

How the results depend on the processing

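The adjusted calls depended on the test. edgeR called none of the 42 in a knockdown comparison, and that held with DESeq2-type size factors, without the filter on low counts, per length (tested with limma), with the earlier quasi-likelihood method and without each library in turn. DESeq2 called 10 lower and 1 higher in T24, 1 lower and 6 higher in UMUC3, 3 lower over both lines, and 11 higher and 2 lower for the UMUC3 effect minus the T24 effect. An edgeR refit on the genes whose counts kept to the same transcripts (22 of the 42), chosen after seeing the data, called 7 of the 22 lower in T24 (against 1.84% of the 4448 genes in it), 3 higher in UMUC3 (7.53%) and 4 higher for the difference (1.93%). DESeq2 and this refit test fewer genes or estimate the spread otherwise, and the cause of the calls was not tested.

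At an unadjusted p under 0.05, these 22 genes alone gave 12 lower and 0 higher in T24, against 5.94% and 6.6% of all 20721 genes. In UMUC3 they gave 0 lower, against 7.62%, while CDT1, CHAF1A, CHAF1B, GINS2, PCNA and RFC2 were higher, against 9.22%. For the difference they gave 13 higher and 0 lower, against 7.19% and 6.27%. These shares are over all genes tested, not over the 4448 that kept to the same transcripts, so the 2 sets are unlike. The refit gave 0 lower in UMUC3 and for the difference. The median log2 fold change of the 22, in either form, was -0.41 in T24, 0.11 in UMUC3 and 0.60 for the difference. Per length, 3 members were lower and 2 higher over both lines, both knockdown libraries lay above the control in both lines for 2 members, and the medians were 0.10 in UMUC3 and 0.57 for the difference. The UMUC3 median was 0.11 with DESeq2 or DESeq2-type size factors and 0.13 without the filter.

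With the replicate number as a block, 0 members were called in the knockdown comparisons, 2 were lower over both lines at an unadjusted p under 0.05 whether numbered by title or by data column, and by data column 1 was lower in UMUC3. With either block the UMUC3 median was 0.13 and 1 member was called higher in T24 than in UMUC3. The block left 15 (by title) or 14 (by data column) members called lower there. The members lost were ORC2, MCM2 and BLM with either block, and POLD3 by data column. POLE3, CDKN1A and RBL1 in UMUC3 were no longer called (edgeR adjusted p = 0.204 each by title).

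Without each library in turn, the median was -0.39 to -0.33 in T24, 0.12 to 0.13 in UMUC3 and 0.48 to 0.56 for the difference. The members at an unadjusted p under 0.05 were 1 to 2 higher in T24 and 1 to 3 lower in UMUC3. Over both lines they were 1 to 20 lower and 1 to 9 higher, and the median was -0.33 to 0.13. The 20 lower and the -0.33 came without the UMUC3 control, and the 9 higher and the 0.13 without the T24 control, since the fit then reads the effect from the other line. Between the lines 11 to 23 members were called lower in T24 and 0 to 1 higher, with 11 without T24 knockdown 1. Fewer were called lower in T24 between the controls (7, with 5 higher) and in the 22 genes in either form (9). The number called higher was 1 without the filter, per length, with the earlier method and between the knockdown libraries. The last 2 of these and the comparison of the controls were also chosen after seeing the data. Between the lines, the earlier method called 16.5% of all genes lower in T24 and 18.8% higher. The refit called 27% of its 4448 genes lower and 27.5% higher. No such shares are given for the blocks, without the filter, per length or without each library. Those counts therefore cannot be set against all genes.

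For 53 named genes, members and others, 1211 values were computed under an alternative. Of these, 1065 kept their direction and their side of the threshold, 61 passed it (41 with DESeq2, 18 in the refit and 2 in the genes that kept their transcripts) and 84 lost it. The losses were in the comparison of the lines, where 14 of the 19 members called lost the call under at least 1 alternative (12 of them between the controls), and in POLE3, CDKN1A and RBL1 in UMUC3. CHAF1A, DNA2, MCM7, MCM10 and LIG1 kept their call between the lines under every alternative that tested them. POLE3, CDKN1A and RBL1 were also lost with the earlier method (edgeR adjusted p = 0.0608, 0.0607 and 0.0607) and per length (limma adjusted p = 0.1, 0.0865 and 0.109). RRM2 in T24, not called, changed sign per length (from 0.53 to -0.19 log2). With 1 control library per line the control's spread is not measured, and at this depth the WRN level of 1.88 CPM in T24 still rests on 111 counts of its coding transcript.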
